A study of Mus musculus with 12 samples.

Results

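Metallothioneins are small, cysteine-rich proteins that bind zinc and copper, and 3 genes of the family, Mt1, Mt2 and Mt3, were followed in the hippocampus of Presenilin double knockout and wild-type mice. The 3 members were taken by their gene symbols from the 21878 genes listed in each of 12 libraries. All 3 passed a filter of 0.5 FPKM in at least 3 libraries, which kept 12689 genes. FPKM scales the fragments of a gene by transcript length and library depth. Levels set side by side between genes rest on the transcript used for each, which for Mt1 is a predicted RefSeq transcript, and on reads that can be placed on 1 gene. Gapdh, for example, was listed at 2.57 to 4.38 FPKM, and 82.5% of its stretches of 50 bases occur in transcripts of other genes. Whether such shared stretches affected its listed level was not tested.

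Total RNA was sequenced after removal of ribosomal RNA, from hippocampi of Presenilin conditional double knockout mice (DKO) and of wild-type mice (WT) killed at night (9 p.m.) or in the day (9 a.m.). The groups were Night DKO, Night WT, Day DKO and Day WT, with 3 libraries each, and mice of all 4 groups had been anaesthetised with sodium pentobarbital at 30 mg/kg. The labels used here give no age, sex or strain and do not name what drives the conditional deletion. They do not say whether the libraries of a group came from separate mice, so each p-value covers the spread among the libraries alone, and that spread may be technical. Psen2 had 0.275 to 0.594 FPKM in the 6 DKO libraries and 1.47 to 3.64 FPKM in the 6 WT libraries. The genotypes did not overlap in Psen2. FPKM summed to between 151059 and 175692 per library. The sums were 165818 to 172457 in Night DKO, 167372 to 175692 in Night WT, 155504 to 167292 in Day DKO and 151059 to 162596 in Day WT. In WT mice the sum was thus higher in every night library than in every day library. The relative depth read from the lowest values lay between 0.906 and 1.054 of that of Day WT replicate 1. The summed level of 4 Y-linked genes was 0.0308 FPKM in Night WT replicate 1 and at least 14.1 FPKM in each of the other 11 libraries, so every comparison with Night WT mixes sexes. The Night WT libraries thus did not all come from 1 mouse, and for the other groups these values do not tell. The labels give the tissue as brain and the series' design text as hippocampus. All 10 neuron markers and all 14 astrocyte markers were above 0 in at least 1 library, the neuron markers summing to 1026 to 1141 FPKM in DKO libraries and 965 to 1100.5 FPKM in WT libraries.

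In the cell, metallothioneins hold zinc and copper in clusters of cysteine thiolates, buffer free zinc, and take up reactive oxygen species. Zinc induces Mt1 and Mt2 together, through the zinc-sensing transcription factor MTF1 and its metal response elements. Glucocorticoids, oxidative stress and cytokines also induce them, and in the brain, astrocytes are a main source of both. Mt3, first described as growth inhibitory factor, is the brain-enriched form, is expressed in neurons and astrocytes, and is known to respond little to the inducers of Mt1 and Mt2. A further gene of the cluster, Mt4, belongs to stratified squamous epithelium.

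The coding sequences are shown because they hold what defines the family, the cysteine codons, given here in capitals (GENCODE M21 transcripts, GRCm38, 5′ to 3′).
Mt1: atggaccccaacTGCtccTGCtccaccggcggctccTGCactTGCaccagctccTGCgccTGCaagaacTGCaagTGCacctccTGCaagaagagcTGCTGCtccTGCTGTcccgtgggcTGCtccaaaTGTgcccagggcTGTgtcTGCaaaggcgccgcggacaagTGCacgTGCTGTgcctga
Mt2: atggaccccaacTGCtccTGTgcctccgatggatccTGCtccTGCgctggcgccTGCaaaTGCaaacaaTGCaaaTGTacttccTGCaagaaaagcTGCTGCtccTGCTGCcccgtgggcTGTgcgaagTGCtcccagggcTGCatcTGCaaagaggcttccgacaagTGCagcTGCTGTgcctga
Mt3: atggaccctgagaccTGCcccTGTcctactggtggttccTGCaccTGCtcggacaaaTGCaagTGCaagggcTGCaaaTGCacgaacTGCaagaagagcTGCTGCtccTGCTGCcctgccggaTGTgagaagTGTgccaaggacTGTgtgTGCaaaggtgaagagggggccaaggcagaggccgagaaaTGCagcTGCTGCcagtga
Each of the 3 sequences had 20 cysteine codons, out of 61 codons in Mt1, 61 in Mt2 and 68 in Mt3, stop codon not counted. Mt2 and Mt1 had the same base at 79.6% of aligned positions of the coding sequence, Mt3 and Mt1 at 66.2%, and Mt3 and Mt2 at 67.6%, with the 21 extra bases of Mt3 counted as mismatches. No stretch of 50 bases of any of the 3 transcripts occurred in the transcript of another annotated gene, so reads of that length can be told apart between the members.

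The 3 genes lie on the plus strand of chromosome 8 (GRCm38.p6, RefSeq), each with 3 exons in the transcript used. Mt3 is at chr8:94152607-94154148, Mt2 at chr8:94172618-94173567 and Mt1 at chr8:94178883-94180327, and with Mt4 they span 43.1 kb. Their promoters are shown because induction by metals acts through them. They hold 250 bases before and 50 from the transcript start of RefSeq's promoter table, with matches to the core of the metal response element in capitals, read on either strand.
Mt1: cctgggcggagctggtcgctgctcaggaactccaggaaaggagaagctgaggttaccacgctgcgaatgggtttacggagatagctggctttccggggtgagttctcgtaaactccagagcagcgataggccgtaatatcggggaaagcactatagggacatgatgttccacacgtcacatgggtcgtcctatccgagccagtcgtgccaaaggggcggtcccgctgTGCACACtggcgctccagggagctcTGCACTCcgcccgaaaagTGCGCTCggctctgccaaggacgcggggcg
Mt2: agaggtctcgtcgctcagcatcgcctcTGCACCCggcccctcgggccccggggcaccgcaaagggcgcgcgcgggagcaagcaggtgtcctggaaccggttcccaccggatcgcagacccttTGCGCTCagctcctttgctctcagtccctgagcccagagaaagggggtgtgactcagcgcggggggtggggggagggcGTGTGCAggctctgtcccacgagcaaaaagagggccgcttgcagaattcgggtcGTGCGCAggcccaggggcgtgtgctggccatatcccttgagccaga
Mt3: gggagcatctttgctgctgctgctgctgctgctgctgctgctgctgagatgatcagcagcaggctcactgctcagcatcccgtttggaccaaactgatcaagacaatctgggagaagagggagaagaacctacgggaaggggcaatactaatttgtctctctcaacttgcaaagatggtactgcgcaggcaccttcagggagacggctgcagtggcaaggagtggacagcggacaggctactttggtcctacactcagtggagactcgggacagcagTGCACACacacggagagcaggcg
The windows are chr8:94178839-94179138 for Mt1, chr8:94172368-94172667 for Mt2 and chr8:94152357-94152656 for Mt3, all on the plus strand. The start used for Mt1 is base 94179089, which lies inside the gene as RefSeq bounds it. It is the only start listed for Mt1, and another start would move the window, the positions and the counts of matches. Bases outside the windows, upstream or downstream, were not searched, so motifs absent here may lie there. The core was searched as TGCACNC or TGCGCNC on both strands. Mt2 had 4 matches, a number reached by 0.52% of 32851 promoters of the same length. Mt1 had 3 matches, a number reached by 1.97% of promoters, and Mt3 had 1, a number reached by 25.7%. Counted from the first transcribed base, the matches of Mt1 began 23 bases before and 2 and 20 bases after it. Those of Mt2 began 223, 128 and 50 bases before and 4 bases after it, and the match of Mt3 began 27 bases after it. The core of the antioxidant response element, TGACNNNGC, occurred once in Mt2 and in 12.4% of promoters. The glucocorticoid receptor half-site AGAACA, the STAT site TTCNNNGAA and the E-box CACGTG were not among the letters of any of the 3 windows. The shares of promoters that held these 3 motifs were 19.0%, 8.3% and 7.2% in that order. The antioxidant match of Mt2 overlapped no metal response element match, and a match describes letters, not binding.

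Mt3 had the highest level of the family in every library, followed by Mt2 and then Mt1. Mt3 ranked between 19 and 39 among all genes by FPKM, Mt2 between 73 and 168, and Mt1 between 425 and 704. The lowest Mt3 level of any library (353 FPKM) was above the highest Mt2 level (224 FPKM), and the lowest Mt2 level (114 FPKM) was above the highest Mt1 level (62.3 FPKM). Mt4 was listed at 0 in 10 libraries, at 0.153 FPKM in Night DKO replicate 3 and at 0.155 FPKM in Day WT replicate 3, and was not tested.

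Mt1 had 62.3, 60.4 and 61.1 FPKM in Night DKO libraries and 59.0, 49.4 and 61.0 FPKM in Night WT libraries. It had 52.6, 41.9 and 56.4 FPKM in Day DKO libraries and 36.5, 48.1 and 38.2 FPKM in Day WT libraries. Every night library was above every day library of its own genotype. The group means, from high to low, were 61.3 ± 0.987 FPKM in Night DKO, 56.4 ± 6.21 in Night WT, 50.3 ± 7.55 in Day DKO and 40.9 ± 6.31 in Day WT (SD, n = 3 each). Libraries of neighbouring groups in that order overlapped.

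Mt2 had 224, 179.6 and 153 FPKM in Night DKO libraries and 187, 195 and 198 FPKM in Night WT libraries. It had 161, 214 and 153 FPKM in Day DKO libraries and 121, 167 and 114 FPKM in Day WT libraries. The Night WT libraries were all above the Day WT libraries, whereas the night and day libraries of DKO mice overlapped. The means were 186 ± 35.6 FPKM in Night DKO, 193 ± 5.29 FPKM in Night WT, 176 ± 33.3 FPKM in Day DKO and 134 ± 29.0 FPKM in Day WT (SD, n = 3 each). Day WT had the lowest mean, and Day WT replicate 2 reached into the range of both DKO groups.

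Mt3 had 413, 399.5 and 359 FPKM in Night DKO libraries and 356, 363 and 353 FPKM in Night WT libraries. It had 383, 481 and 442 FPKM in Day DKO libraries and 367, 458 and 382 FPKM in Day WT libraries. In WT mice the order was the reverse of that of Mt1 and Mt2, and all Night WT libraries lay below all Day WT libraries. The means were 390.5 ± 28.0 FPKM in Night DKO, 357 ± 5.35 FPKM in Night WT, 435 ± 49.1 FPKM in Day DKO and 402 ± 48.9 FPKM in Day WT (SD, n = 3 each). The night and day libraries of DKO mice overlapped.

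**Figure D1:**
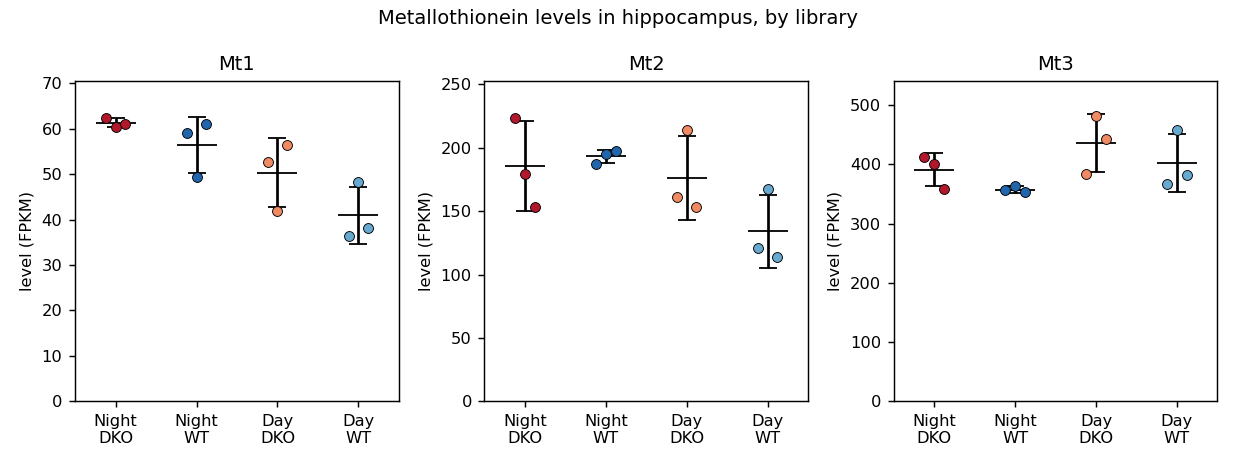
Level of Mt1, Mt2 and Mt3 (FPKM, linear axis from 0) in each library, by group; points are libraries, the wide bar is the group mean and the error bar is the SD (n = 3). The Mt1 night libraries sit at 49.4 to 62.3 FPKM and the day libraries at 36.5 to 56.4 FPKM, while the Mt3 night libraries sit at 353 to 413 FPKM and the day libraries at 367 to 481 FPKM.

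Time of day was the comparison in which a member passed the test. Mt1 had 58.8 ± 4.78 FPKM in night libraries and 45.6 ± 8.07 FPKM in day libraries (SD, n = 6 each). Averaged over the genotypes it was higher at night by a log2 difference of 0.37 ± 0.085 (SE; 95% interval 0.19 to 0.56; limma on log2(FPKM + 1), adjusted p = 0.0273). Mt2 differed by 0.31 ± 0.115 (adjusted p = 0.112), with 189 ± 23.1 FPKM at night and 155 ± 36.2 FPKM in the day, and did not pass. Mt3 differed by -0.16 ± 0.071 (adjusted p = 0.177), with 374 ± 25.6 FPKM at night and 419 ± 47.4 FPKM in the day, and did not pass either. So 1 of 3 members was called in a comparison that called 6.07% of the 12689 genes tested, and was higher, as were 5.19%. Over all genes the calls split into 659 higher and 111 lower at night. At an unadjusted p under 0.05 all 3 members passed, as did 26.2% of genes. Levels summed over the 3 members were 622 ± 43.2 FPKM at night and 619 ± 83.3 FPKM in the day, a difference smaller than the spread.

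The Mt1 call depended on the scaling and on single libraries. Scaling by the median of ratios gave 0.32 (adjusted p = 0.0639) and turned the split of all calls to 206 higher and 284 lower. Quantile normalization gave 0.31 for Mt1 (adjusted p = 0.0702), and Mt3 passed in its place at -0.24 (adjusted p = 0.0182). Removal of the trend with transcript length gave 0.28 for Mt1 (adjusted p = 0.0865), and again Mt3 passed, at -0.28 (adjusted p = 0.0134). Directions of the 3 members did not change under these scalings. The Mt1 call was also lost without Night WT replicate 1, the library without Y-linked RNA (0.36, adjusted p = 0.0592). It was lost without Day WT replicate 1, Night WT replicate 3, Night DKO replicate 1 or Night DKO replicate 3 (0.34 to 0.38, adjusted p = 0.0545 to 0.0686), and Mt2 passed without Day WT replicate 2 (0.39, adjusted p = 0.0432).

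**Figure D2:**
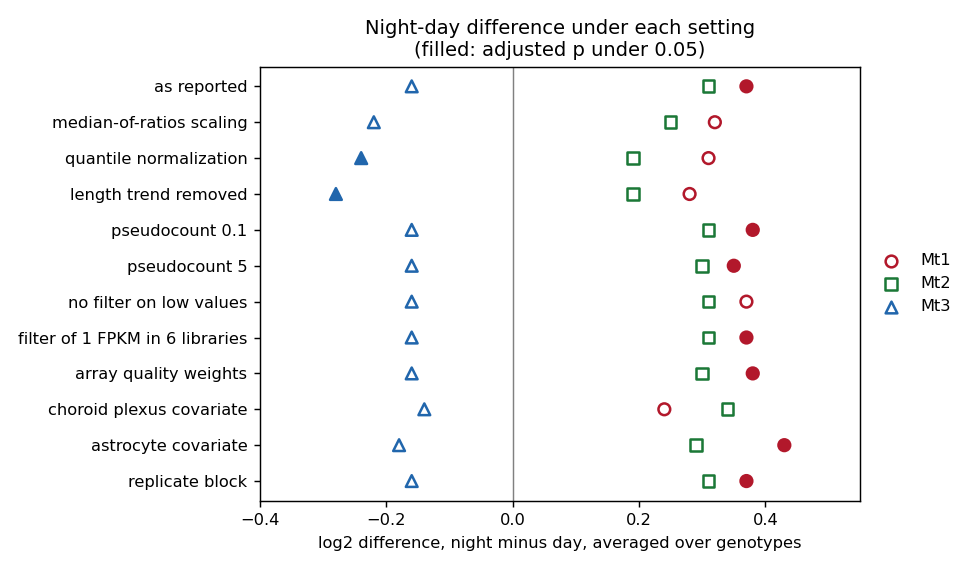
Log2 difference between night and day libraries, averaged over genotypes, for Mt1 (circles), Mt2 (squares) and Mt3 (triangles) under 12 settings of scaling, filter and model; filled symbols passed an adjusted p of 0.05. Mt1 and Mt2 lie right of 0 and Mt3 left of 0 in every setting shown, while the filled symbols are Mt1 in some settings and Mt3 after quantile normalization and length trend removal.

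Ratios between members within a library do not change when all levels of that library are scaled by a common factor. Quantile normalization and length trend removal are not of that kind, and the ratios were not computed under them. Mt3 over Mt1 was 6.62, 6.62 and 5.88 in Night DKO libraries and 6.03, 7.36 and 5.79 in Night WT libraries. It was 7.28, 11.5 and 7.83 in Day DKO libraries and 10.06, 9.51 and 9.996 in Day WT libraries. Night and day libraries did not overlap within either genotype, and over both genotypes only Night WT replicate 2 reached into the range of the day. No share over other pairs of genes is given here for this separation, or for that of Mt3 over Mt2 in WT mice. The log2 ratio differed by -0.54 between night and day, by -0.45 in DKO mice and by -0.63 in WT mice. A 2-sided exact permutation test of libraries within genotype (400 arrangements) gave p = 0.005, the smallest the design can give, and adjusted p = 0.03 over 6 ratio comparisons.

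Mt3 over Mt2 was 1.85, 2.22 and 2.34 in Night DKO libraries and 1.90, 1.86 and 1.79 in Night WT libraries. It was 2.38, 2.24 and 2.88 in Day DKO libraries and 3.03, 2.74 and 3.36 in Day WT libraries. Night and day libraries stood apart in WT mice and overlapped in DKO mice. The log2 ratio differed by -0.47 between night and day (exact permutation test, p = 0.01, adjusted p = 0.03), by -0.23 in DKO mice and by -0.71 in WT mice. With 1 library left out and fewer arrangements, the adjusted p of Mt3 over Mt1 was 0.06 without Night DKO replicate 1 or 2. That of Mt3 over Mt2 was 0.06 to 0.09 without Day DKO replicate 1 or 3 or Night DKO replicate 1 or 2. Mt2 over Mt1 averaged 3.02 ± 0.540 in Night DKO, 3.45 ± 0.428 in Night WT, 3.63 ± 1.30 in Day DKO and 3.26 ± 0.257 in Day WT (SD, n = 3 each), a log2 difference between night and day of -0.07 (exact permutation test, p = 0.74). Of the summed level of the 3 members, Mt3 made up 61.4% ± 2.00 in Night DKO, 58.9% ± 1.06 in Night WT, 65.8% ± 1.86 in Day DKO and 69.8% ± 1.77 in Day WT (SD, n = 3 each). Mt2 made up 28.9% in Night DKO, 31.8% in Night WT, 26.5% in Day DKO and 23.1% in Day WT. Mt1 made up 9.67% in Night DKO, 9.30% in Night WT, 7.72% in Day DKO and 7.09% in Day WT.

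**Figure D3:**
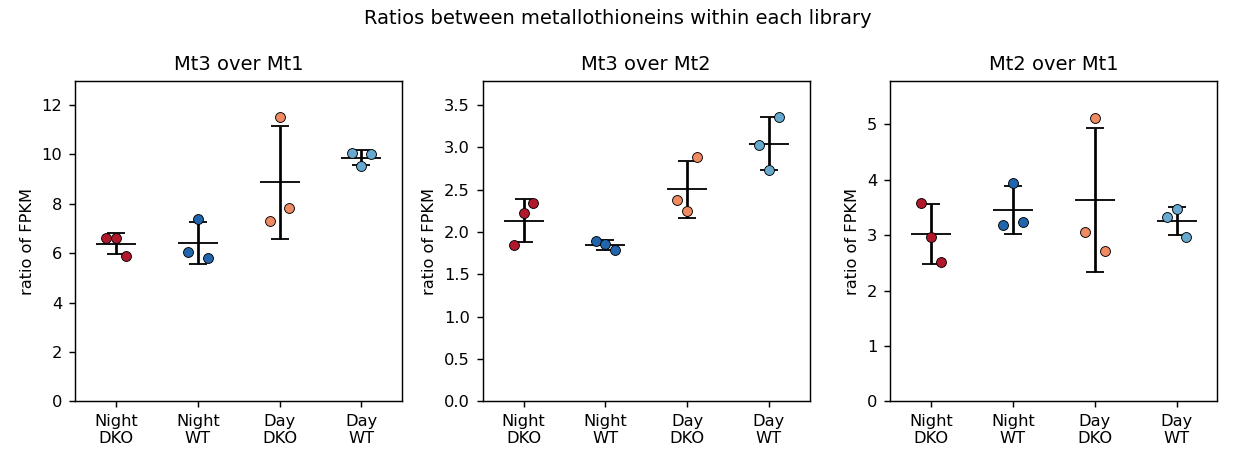
Ratio of FPKM between members within each library (linear axis from 0), by group; points are libraries, wide bars group means and error bars the SD (n = 3). Mt3 over Mt1 lies at 5.79 to 7.36 in night libraries and 7.28 to 11.5 in day libraries, and Mt3 over Mt2 at 1.79 to 2.34 at night and 2.24 to 3.36 in the day.

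Within DKO mice, where 0.299% of genes were called, Mt1 differed between night and day by 0.29 ± 0.120 (limma, adjusted p = 0.279). Mt2 differed by 0.07 ± 0.163 (adjusted p = 0.888) and Mt3 by -0.15 ± 0.1 (adjusted p = 0.51). The groups did not overlap for Mt1, which was higher, as were 12.9% of genes without overlap. At an unadjusted p under 0.05 Mt1 alone of the 3 passed, as did 15.1% of genes. The Mt1 difference in DKO mice was 0.04 (adjusted p = 0.918) with a choroid plexus covariate and 0.17 (adjusted p = 0.552) without Day DKO replicate 2. Mt2 lay at -0.07 to 0.22 and Mt3 at -0.24 to -0.08 with 1 library left out.

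Within WT mice, where 1.67% of genes were called, Mt1 differed between night and day by 0.46 ± 0.120 (limma, adjusted p = 0.0692). Mt2 differed by 0.55 ± 0.163 (adjusted p = 0.092) and Mt3 by -0.16 ± 0.1 (adjusted p = 0.349). No member passed, although the 2 groups did not overlap in any of the 3. Mt1 and Mt2 were higher without overlap, as were 24.3% of genes, and Mt3 was lower without overlap, as were 4.37%. At an unadjusted p under 0.05 Mt1 and Mt2 passed, as did 22.3% of genes. The share of genes called in WT mice rested on single libraries. The 212 calls became 1 without Day WT replicate 1, 1 without any 1 of the 3 Night WT libraries and 41 without Day WT replicate 2. Scaling by the median of ratios left 57, of which 23 were higher at night and 34 lower, against 192 higher and 20 lower with the levels as deposited. Without Day WT replicate 2 the Mt3 difference was -0.07. Mt1 was called in WT mice with array quality weights (adjusted p = 0.0368), with a choroid plexus covariate (adjusted p = 0.036) and without Day DKO replicate 2 (adjusted p = 0.0488).

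The time differences of DKO and WT mice were set against each other by the interaction term. It was -0.17 ± 0.169 for Mt1 (limma, adjusted p = 0.77), -0.47 ± 0.230 for Mt2 (95% interval -0.97 to 0.03, adjusted p = 0.585) and 0.01 ± 0.141 for Mt3 (adjusted p = 0.988). Of all genes 0% were called, and 8.66% had an unadjusted p under 0.05, none of the members among them. The Mt1 term was -0.39 with the choroid plexus covariate (adjusted p = 0.851) and -0.29 to -0.08 with 1 library left out.

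Between DKO and WT mice no member passed the test at either time. In the day, when 1.18% of genes were called, Mt1 differed by 0.29 ± 0.120 between Day DKO and Day WT (limma, adjusted p = 0.247). Mt2 differed by 0.40 ± 0.163 (adjusted p = 0.245) and Mt3 by 0.11 ± 0.1 (adjusted p = 0.587). Mt1 and Mt2 had an unadjusted p under 0.05 in the day, as did 17% of genes. Without Day DKO replicate 2 the Mt2 difference was 0.25 and the Mt3 difference 0.04. Leaving out Day DKO replicate 1 gave 0.20 for Mt3, leaving out Day WT replicate 1 gave 0.05, and leaving out Day WT replicate 2 gave 0.21. Mt1 was at 0.52 with the choroid plexus covariate (adjusted p = 0.091).

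At night, when 0.0236% of genes were called, Mt1 differed by 0.12 ± 0.120 between Night DKO and Night WT (limma, adjusted p = 0.817). Mt2 differed by -0.07 ± 0.163 (adjusted p = 0.935) and Mt3 by 0.13 ± 0.1 (adjusted p = 0.754). None of the 3 had an unadjusted p under 0.05 at night, against 9.18% of genes. DKO and WT libraries overlapped for every member at both times. Without overlap, 14.3% of genes were higher and 5.26% lower in DKO in the day, and 5.73% higher and 9.48% lower at night.

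Averaged over times, when 1.88% of genes were called, Mt1 differed between DKO and WT by 0.21 ± 0.085 (95% interval 0.02 to 0.39, limma, adjusted p = 0.242). Mt2 differed by 0.16 ± 0.115 (-0.09 to 0.41, adjusted p = 0.522) and Mt3 by 0.12 ± 0.071 (-0.03 to 0.27, adjusted p = 0.43). Mt1 had an unadjusted p under 0.05, as did 16.2% of genes. None of the 3 ratios passed between DKO and WT libraries (exact permutation tests, p = 0.455 to 0.805). Their log2 differences were -0.09 for Mt3 over Mt1, -0.04 for Mt3 over Mt2 and -0.05 for Mt2 over Mt1.

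**Figure D4:**
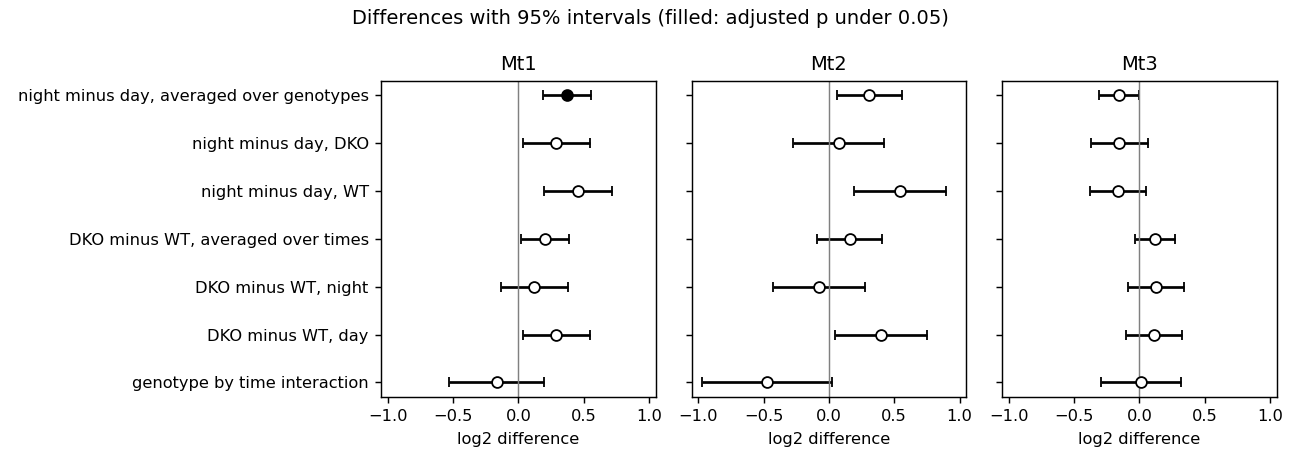
Log2 difference of each member in 7 comparisons, as points with 95% intervals from limma on log2(FPKM + 1); filled points passed an adjusted p of 0.05 over all genes tested. The 1 filled point is Mt1 at night against day averaged over genotypes (0.37), and the widest intervals belong to the interaction of Mt2.

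Genes that handle zinc and copper were set against the 5.19% of all genes called higher and the 26.2% with an unadjusted p under 0.05 between night and day averaged over genotypes. Of 8 zinc exporters of the ZnT family tested, 1 rose at night, Slc30a4, which loads zinc into vesicles, by 0.20 ± 0.051 (limma, adjusted p = 0.0416), and Slc30a5 differed by 0.19 (adjusted p = 0.0524). The Slc30a4 call was lost in 17 of 23 alternatives. The median over the 8 was 0.07, against 0.05 over all genes. The exporter of the plasma membrane, Slc30a1, a known target of MTF1, had 6.53 ± 0.438 FPKM in Night DKO, 6.62 ± 0.427 in Night WT, 7.003 ± 0.387 in Day DKO and 6.04 ± 0.272 in Day WT (SD, n = 3 each). Its log2 difference between night and day was 0.01 (limma, adjusted p = 0.886), and the sign changed with the scaling. None of 12 zinc importers of the ZIP family passed (4 at an unadjusted p under 0.05, limma, a share near that of all genes), with Slc39a12, an importer of astrocytes, at 0.20 (adjusted p = 0.0699). Mtf1 itself differed by 0.01 (adjusted p = 0.896), a value whose sign also changed with the scaling, and Slc39a10, known to be repressed through MTF1, by -0.08 (adjusted p = 0.448). None of 10 genes of copper handling passed (2 at an unadjusted p under 0.05), the copper chaperone Atox1 differing by 0.22 (adjusted p = 0.0683). The glutamate-cysteine ligase subunit Gclc, a target of both MTF1 and NRF2 and rate-limiting for glutathione, rose by 0.20 ± 0.041 (adjusted p = 0.0199), a call lost in 2 of 23 alternatives.

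Genes known to respond to other inducers of Mt1 and Mt2 were followed as well. Of 18 glucocorticoid-responsive genes tested, 7 rose at night averaged over genotypes and none fell, where 5.19% of all genes were called higher. The median over the 18 was 0.27, against 0.05 over all genes. Tsc22d3, which encodes the glucocorticoid-induced leucine zipper, had 21.0 ± 5.26 FPKM in Night DKO, 21.7 ± 1.06 in Night WT, 14.1 ± 4.20 in Day DKO and 9.95 ± 1.25 in Day WT (SD, n = 3 each). It rose at night by 0.81 ± 0.137 (limma, adjusted p = 0.00948). Fkbp5, a co-chaperone of the glucocorticoid receptor, rose by 0.40 ± 0.063 (adjusted p = 0.00684). The others were the lipid droplet gene Plin4 (0.76), the kinase gene Sgk1 (0.66), the NF-kappaB inhibitor gene Nfkbia (0.51), the sulfotransferase gene Sult1a1 (0.30) and the transcription factor gene Klf9 (0.25). Tsc22d3, Fkbp5, Plin4, Klf9 and Sult1a1 kept their calls in every alternative that tested them, Nfkbia lost its call in 5 and Sgk1 in 12 of 23 alternatives. Within DKO mice none of the 18 passed, where 0.299% of all genes were called, and their median was 0.18, against 0.02 over all genes. At an unadjusted p under 0.05 (limma) 7 of the 18 passed, as did 15.1% of all genes. Within WT mice, where 1.67% of all genes were called, 7 of the 18 rose, with a median over the 18 of 0.40, against 0.07 over all genes. Among them were Tsc22d3 (1.06 ± 0.194, adjusted p = 0.0339), Fkbp5 (0.59 ± 0.089, adjusted p = 0.018) and Errfi1, an inhibitor of the EGF receptor (0.39 ± 0.088, adjusted p = 0.0485). In WT mice these calls were lost in 10, 6 and 17 of 24 alternatives in that order. The interaction term, which sets the time differences of DKO and WT mice against each other, called none of the 18 and 0% of all genes. Its median over the 18 was -0.28, against -0.05 over all genes. At an unadjusted p under 0.05 (limma) 7 of the 18 passed in it, as did 8.66% of all genes. In the day, Fkbp5 was the 1 of 18 called in Day DKO against Day WT, by 0.44 ± 0.089 (limma, adjusted p = 0.0368), where 1.18% of all genes were called. The median over the 18 was 0.26, against 0.04 over all genes. The Fkbp5 call in the day was lost in 14 of 24 alternatives.

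Of 11 antioxidant targets of NRF2 tested, 3 rose at night averaged over genotypes and none fell, with a median of 0.10, against 0.05 over all genes and 5.19% of all genes called higher. They were the glutathione reductase gene Gsr (0.31 ± 0.043, limma, adjusted p = 0.00363), the peroxiredoxin gene Prdx1 (0.25 ± 0.037, adjusted p = 0.00481) and Gclc. In DKO against WT mice averaged over times, where 1.88% of all genes were called, 1 of the 11 was called higher and 1 lower. Of the 11, 5 had a positive difference, and the median was -0.04, against 0.01 over all genes. The sulfiredoxin gene Srxn1 rose by 0.32 ± 0.046 (limma, adjusted p = 0.0102). The cystine transporter gene Slc7a11 was lower in DKO, by -0.39 ± 0.076 (adjusted p = 0.0247). Of the 10 genes of copper handling 1 was called there, the copper-binding ferroxidase gene Cp, also lower in DKO (-0.40 ± 0.079, adjusted p = 0.0263). None of 6 genes of the IL-6 and STAT3 response passed between night and day (1 at an unadjusted p under 0.05, limma, against 26.2% of all genes). Of the 6, the acute-phase gene Serpina3n was higher in DKO mice averaged over times, by 0.46 ± 0.108 (adjusted p = 0.0479). Among 23 alternatives the calls between DKO and WT were lost in 2 for Srxn1, 4 for Slc7a11, 9 for Cp and 15 for Serpina3n.

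The 14 astrocyte markers had summed levels of 534 to 620 FPKM in Night DKO, 498 to 550 FPKM in Night WT, 550 to 619 FPKM in Day DKO and 482 to 509 FPKM in Day WT. Averaged over genotypes 3 of them rose at night, Aldh1l1 (0.18), Gjb6 (0.32) and Fgfr3 (0.22), where 5.19% of all genes were called higher. Of the 14, 9 had a positive difference, and the median was 0.06, against 0.05 over all genes. The transcription factor gene Sox9 differed by -0.22 (adjusted p = 0.0569) and was called lower at night in 4 of 23 alternatives. In WT mice alone Sox9 fell at night by 0.42 (limma, adjusted p = 0.0429), the 1 astrocyte marker called there, as were 1.67% of all genes. With median-of-ratios scaling, quantile normalization or length trend removal no astrocyte marker was called higher between night and day and 1 was called lower. Averaged over times 1 of 14 was higher in DKO, the gene of the astrocyte filament Gfap (0.79 ± 0.160, limma, adjusted p = 0.029), where 1.88% of all genes were called. Among 23 alternatives these calls were lost in 12 for Aldh1l1, 13 for Gjb6, 17 for Fgfr3 and 11 for Gfap. With the astrocyte markers as a covariate the Mt1 difference between night and day was 0.43 (adjusted p = 0.0332). In bulk tissue a change in the number of cells of a type and a change in RNA per cell cannot be told apart. All 5 blood markers rose at night averaged over genotypes, where 5.19% of all genes were called higher, with Hba-a1 at 0.67 ± 0.150 (limma, adjusted p = 0.0271). With median-of-ratios scaling 1 of the 5 was called, as were 490 of 12689 genes. Averaged over times 3 of the 5 blood markers were called lower in DKO and none higher, where 1.88% of all genes were called. The median over the 5 blood markers was -0.52 there, against 0.01 over all genes. They summed to 116 to 159 FPKM in Night DKO, 171 to 285 FPKM in Night WT, 90.5 to 109.8 FPKM in Day DKO and 111 to 153 FPKM in Day WT, and their part in the Mt1 result was not tested.

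Of 12 microglia markers 7 were higher in DKO averaged over times, where 1.88% of all genes were called. Between night and day none of the 12 passed (1 at an unadjusted p under 0.05, limma, against 26.2% of all genes). Their levels summed to 153, 308 and 314 FPKM in Night DKO libraries and 152, 168 and 150 FPKM in Night WT libraries. They summed to 224, 250 and 237 FPKM in Day DKO libraries and 135, 150 and 141 FPKM in Day WT libraries. Night DKO replicate 1 thus lay within the range of the WT libraries, and its Gfap level, 34.4 FPKM, was also below the 63.3 and 79.2 FPKM of the other Night DKO libraries. Without it 10 of the 12 were called, while over all genes 242 were called, against 238 with all libraries. The count was 2 to 5 without any 1 other library, where 80 to 255 of all genes were called. It was 2 with the choroid plexus covariate (107 of all genes) and 4 after quantile normalization (280 of all genes). It was 0 with the astrocyte covariate (46 of all genes) or with no filter on low values (11 of 21878 genes).

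Choroid plexus RNA differed widely between libraries. Its 16 markers summed to 3179.7, 2017 and 2235 FPKM in Night DKO libraries and 3243, 1438 and 3316 FPKM in Night WT libraries. They summed to 887, 79.5 and 1890.1 FPKM in Day DKO libraries and 2700.2, 2934 and 1188 FPKM in Day WT libraries. All 16 had a positive difference between night and day averaged over genotypes, with a median of 0.52, against 0.05 over all genes. None passed the test, and 7 had an unadjusted p under 0.05 (limma), as did 26.2% of all genes. Within DKO mice the median was 0.97, against 0.02 over all genes. There 14 of 16 had an unadjusted p under 0.05 (limma), as did 15.1% of all genes. Within WT mice the median was 0.18, against 0.07 over all genes, with 0 of 16, where the share of all genes was 22.3%. In the day the median between Day DKO and Day WT was -1.01, against 0.04 over all genes. Here 12 of 16 had an unadjusted p under 0.05 (limma), as did 17% of all genes. At night the median between Night DKO and Night WT was -0.03, against -0.01 over all genes, with 0 of 16, where the share of all genes was 9.18%. None of the 16 passed in any of these comparisons. Without Day DKO replicate 2 the medians were 0.56 within DKO mice and -0.58 between Day DKO and Day WT. Day DKO replicate 2, which had the lowest choroid plexus sum, had the lowest Mt1 level of its group and the highest Mt2 and Mt3 levels. With the choroid plexus markers as a covariate the Mt1 difference between night and day was 0.24 (limma, adjusted p = 0.0666). With the same covariate the Mt1 difference between DKO and WT averaged over times was 0.32 (adjusted p = 0.043). Without Day DKO replicate 2 the Mt1 difference between night and day was 0.31 (adjusted p = 0.0384), and Mt3 over Mt1 differed by -0.44 (exact permutation test, adjusted p = 0.03).

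Across the 12 libraries no pair of members passed a correlation test. Mt2 and Mt1 had a Pearson r of 0.58 and a Spearman rho of 0.45 (permutation tests, p = 0.0493 and 0.14, adjusted p = 0.148 and 0.42 over 3 pairs). That r rested on Day WT replicates 1 and 3, without which it was -0.14. Mt3 and Mt1 had an r of -0.19 and a rho of -0.27 (permutation tests, adjusted p = 0.562 and 0.587). Mt3 and Mt2 had an r of 0.23 and a rho of 0.07 (permutation tests, adjusted p = 0.562 and 0.836). Within groups, with each library set against the mean of its own group, Mt3 and Mt2 deviated together. Their r was 0.83 (permutation test, p = 0.00094, adjusted p = 0.00282) and their rho 0.74 (p = 0.00792, adjusted p = 0.0238), and r was 0.82 without the 2 libraries farthest out. Mt2 lay above its group mean by 0.34 in Day WT replicate 2, by 0.30 in Day DKO replicate 2 and by 0.29 in Night DKO replicate 1 on the log2 scale, and Mt3 lay above its own by 0.19, 0.15 and 0.08 in the same libraries. Deviations of Mt2 and Mt1 had r of 0.03 and those of Mt3 and Mt1 0.12, neither past the test (adjusted p = 0.913 for both). The permutations treat the 12 deviations as free, although those of a group sum to 0.

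**Figure D5:**
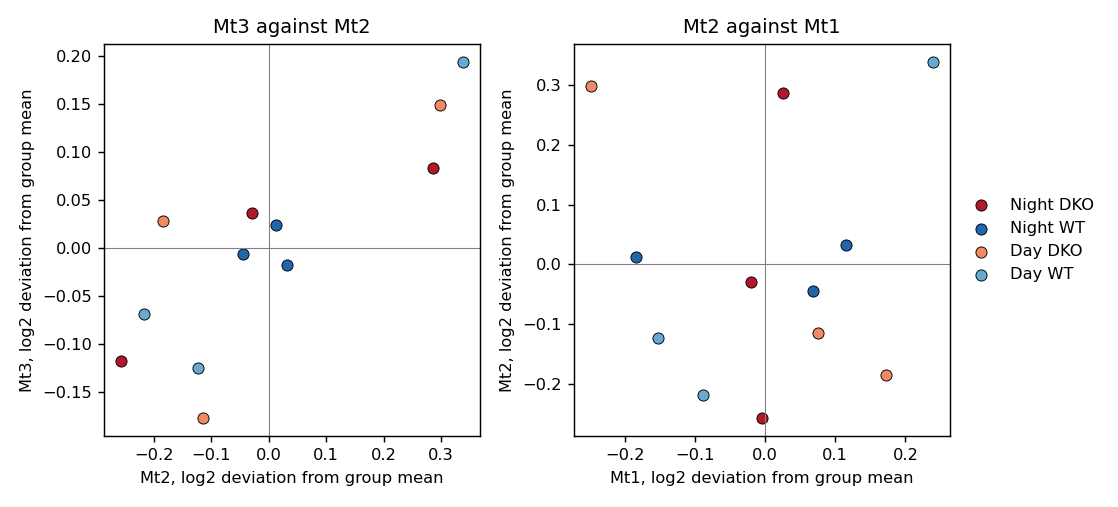
Deviation of each library from the mean of its group on the log2(FPKM + 1) scale, Mt3 against Mt2 on the left and Mt2 against Mt1 on the right; each point is a library, coloured by group. On the left the 3 libraries with the highest Mt2 deviations, 0.29 to 0.34, also have positive Mt3 deviations, and on the right no such order is seen (r of 0.03).

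Genes that RefSeq places within 250 kb of the cluster were looked at beside the members. Those described here are Gnao1, Nudt21, Ogfod1, Bbs2, Nup93 and Herpud1. Of these 6, time of day was called in 1, Herpud1, as in 6.07% of all genes tested. Herpud1, which acts in the degradation of proteins from the endoplasmic reticulum, had 17.5 ± 1.86 FPKM in Night DKO, 18.5 ± 1.53 in Night WT, 12.8 ± 1.42 in Day DKO and 12.4 ± 0.907 in Day WT (SD, n = 3 each). It rose at night by 0.49 ± 0.066 averaged over genotypes (limma, adjusted p = 0.0034), and was called in all 23 alternatives. The gene lies at chr8:94386429-94395371. The other 5 differed by -0.11 to 0.19 and did not pass. Among them were the G protein gene Gnao1 at -0.07 (adjusted p = 0.23) and the polyadenylation factor gene Nudt21 at 0.19 (adjusted p = 0.0725).

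Genes whose log2 levels followed a member most closely across the 12 libraries were picked by Pearson r among 10812 genes, as a description of libraries that share groups and depth. For Mt1 they were Lactb (r = 0.94), a mitochondrial serine protease-like protein, and Zcchc17, Tmem258, Nsdhl and Kctd5 (each 0.88). For Mt2 they were Dusp7 (0.94), a phosphatase of MAP kinases, Sec61g, Mrpl13 and Zdhhc24 (each 0.91) and Polr1c (0.90). For Mt3 they were Plekhg5 (0.87), Rogdi (0.86), and Aldh9a1, Stx17 and Tspan9 (each 0.84). No gene stood in more than 1 of the 3 groups of 5.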

How the data were processed

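Hippocampal RNA of 12 libraries, 4 groups of 3 by genotype and time, was measured after ribosomal RNA removal with a stranded total RNA kit, per the labels' protocols. The authors deposited 1 table of FPKM per library, a level the authors normalized for length and depth. The unit is read from the values and the genome build GRCm38.p6 comes from the submitters' processing notes. No source used here names the aligner or counter. The number of reads is unknown. Among 1016 genes detected in at most 3 libraries the lowest values fell with transcript length (Spearman rho -0.561).

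For 27 genes listed as dates the symbol was restored. Levels were taken as log2(FPKM + 1), which understates changes of low genes. Genes with 0.5 FPKM or more in 3 libraries were fitted with limma 3.58.1 (R 4.3.3) on 4 group means, with a mean-variance trend and Benjamini-Hochberg adjustment over 12689 genes at 0.05. Ratios were tested by exact permutation within genotype or time and correlations with 100000 resamples in scipy 1.17.1. The fit was tested on simulated data. The genes named are the 3 members, Mt4, Psen2, list members that were called or had the smallest p, genes within 250 kb and the 5 genes most like each member with a mean log2 level of at least 1, apart from some that are not reported here. Members and lists were chosen with earlier results of these data known. Comparisons that share a group of libraries are not independent. Alternatives covered scaling, pseudocount, filter, covariates, quality weights, a replicate block and each library left out.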

Additional observations from a re-analysis of the deposited data

How the results depend on the processing

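Under 23 or 24 alternatives per comparison, the night-day difference of Mt1 averaged over genotypes ranged from 0.24 to 0.43 and that of Mt3 from -0.28 to -0.11. The number of members called in that comparison (1 as reported) was 0 with median-of-ratios scaling, 0 with no low-value filter, 0 with a choroid plexus covariate, and 0 to 2 with 1 library left out. In WT mice (0 as reported) it was 1 with array quality weights and 1 with the choroid plexus covariate, and 0 to 1 with 1 library left out. Between DKO and WT averaged over times (0 as reported) it was 1 with the choroid plexus covariate. The cause was not tested. Over all genes, leaving out 1 library gave 243 to 854 calls between night and day averaged over genotypes (770 as reported), 19 to 55 in DKO mice (38), 1 to 213 in WT mice (212), 13 to 205 between DKO and WT in the day (150), 2 to 38 at night (3) and 80 to 255 averaged over times (238).

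Deviations of same-numbered libraries correlated at -0.12 to 0.25 over 18 pairs, with a median of 0.06. Those of differently numbered libraries from different groups correlated at -0.20 to 0.22 over 36 pairs, with a median of -0.03. Of the 12 libraries, 9 correlated best with their own number. These values do not settle whether shared replicate numbers pair the libraries. With a replicate block the ratio Mt3 over Mt1 differed by -0.54 and Mt3 over Mt2 by -0.47, both with an adjusted p of 0.0938, since sign changes over 6 pairs allow few arrangements, and the members called stayed 1 between night and day averaged over genotypes (Mt1, adjusted p = 0.0348). With 1 library left out, Mt3 over Mt1 between night and day lay at -0.60 to -0.44 (adjusted p = 0.03 to 0.06), Mt3 over Mt2 at -0.51 to -0.42 (adjusted p = 0.03 to 0.09), and Mt2 over Mt1 at -0.16 to 0.07, while fewer libraries leave fewer arrangements.

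Signs changed in values near 0. Mt2 between night and day in DKO mice was -0.02 with the length trend removed and -0.07 to 0.22 with 1 library left out, Mt2 between DKO and WT at night -0.22 to 0.05, and the interaction of Mt3 -0.09 to 0.09. Between DKO and WT, Mt2 over Mt1 lay at -0.19 to 0.04 and Mt3 over Mt2 at -0.09 to 0.01. Slc30a1 between night and day was -0.04 after median-of-ratios scaling and quantile normalization, -0.02 with the length trend removed and with the astrocyte covariate, and -0.01 to 0.04 with 1 library left out. Mtf1 was -0.03, -0.04, -0.01 and 0.00 under the same 4 alternatives in that order, and -0.01 to 0.02 with 1 library left out. Without the 2 libraries farthest out, r was -0.14 for Mt2 and Mt1 and 0.14 for Mt3 and Mt1. Other scalings of the deviations chosen after seeing the data, length trend removal and median-of-ratios, gave r of 0.86 and 0.81 for Mt3 and Mt2, -0.20 and 0.00 for Mt2 and Mt1, and -0.31 and 0.10 for Mt3 and Mt1.

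Reads per gene are unknown and the 3 libraries per group limit each within-genotype comparison, so that a member that did not pass is not shown to be equal between groups.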
